A study of Mus musculus with 6 samples.

Results

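The transcripts described here encode the interferon-γ (IFN-γ) signaling core, from the ligand to its feedback inhibitors. They were chosen by gene symbol for their roles in this pathway, and all 9 of them, Ifng, Ifngr1, Ifngr2, Jak1, Jak2, Stat3, Socs1, Socs3 and Ptpn2, were found among the 55487 genes of the count table. RNA was sequenced from 6 subcutaneous tumors of CT26.WT cells, a mouse colon carcinoma line that shares its strain with the hosts, grown in young male BALB/c mice. The labels give the genotype as WT for every sample. By the study's methods, the control group (n = 3 tumors) came from mice given PBS through the tail vein, and the IFN-γ group (n = 3) from mice given recombinant mouse IFN-γ by the same route every other day. The study asked how IFN-γ acts on colorectal cancer cells and their surroundings. The labels do not name the mouse of each tumor, so p-values measure the spread between these tumors only, and the injected protein itself is not seen by sequencing RNA.

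IFN-γ is a cytokine made mainly by T cells and natural killer (NK) cells. It binds a receptor of a ligand-binding chain, IFNGR1, and a signaling chain, IFNGR2, which carry the tyrosine kinases JAK1 and JAK2. The kinases phosphorylate transcription factors of the STAT family, which enter the nucleus and bind GAS elements in their target genes. SOCS proteins are themselves induced by STATs and then block the kinases or their docking sites on receptors, and the phosphatase encoded by Ptpn2 removes phosphate from JAKs and STATs. A tumor sample holds cancer cells, leukocytes and stroma together, so more cells of a type and more RNA per cell cannot be told apart in these values.

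Totals lay between 15759300 and 17559680 counts per tumor. IFN-γ tumor 3 stood apart in interferon-response genes in earlier work on these counts, and it also did so in genes outside the pathway. Its 4 epidermal keratins (Krt5, Krt14, Krt10 and Krt1) summed to 68.4 CPM (counts scaled to a common library size with TMM factors), against 2.75 to 12.3 CPM in the other 5 tumors. Its T cell markers summed to 36.9 CPM and its NK cell markers to 19.8 CPM, below the lowest control at 43.9 and 25.3 CPM, whereas the T cell markers reached 92.5 and 107 CPM and the NK cell markers 61.7 and 67.9 CPM in IFN-γ tumors 1 and 2. Of 8 epithelial and colon genes listed for the labelled cell type, Krt20, Krt18, Cdh1 and Lgals4 were above 3 counts in every tumor, while Cdx2 was at 0 in all 6 and Vil1 had at most 5 counts. Results are given for all 6 tumors and, because of its interferon-response genes, also without IFN-γ tumor 3. That choice was not independent of the interferon-related values compared below. The legends of the study count fewer IFN-γ tumors in its sequencing comparison than the 3 used here and do not say which, so neither set of values is known to use the same tumors.

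In all 6 tumors, none of the 9 genes passed an adjusted p of 0.05 over the 15114 genes tested (edgeR's quasi-likelihood test), where 12 genes (0.0794%) were higher under IFN-γ and 5 (0.0331%) were lower. Socs1, the feedback inhibitor that acts on the JAK kinases, came closest, with a level 1.45 times that of the controls and no overlap between the groups. The 3 genes whose groups did not overlap were Ifngr2, Jak2 and Socs1, each higher in the IFN-γ group, as in 7.62% of all genes tested. At an unadjusted p under 0.05, 4 of the 9 were higher (Ifngr2, Jak2, Stat3 and Socs1) and 0 lower, against 5.74% and 4.44% of all genes. The fold change was above 1 for 8 of the 9 genes and below 1 for Ptpn2, and 50.4% of all genes tested were above 1. Their median log2 fold change was 0.18, beside 0.0015 over all genes tested.

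**Figure D1:**
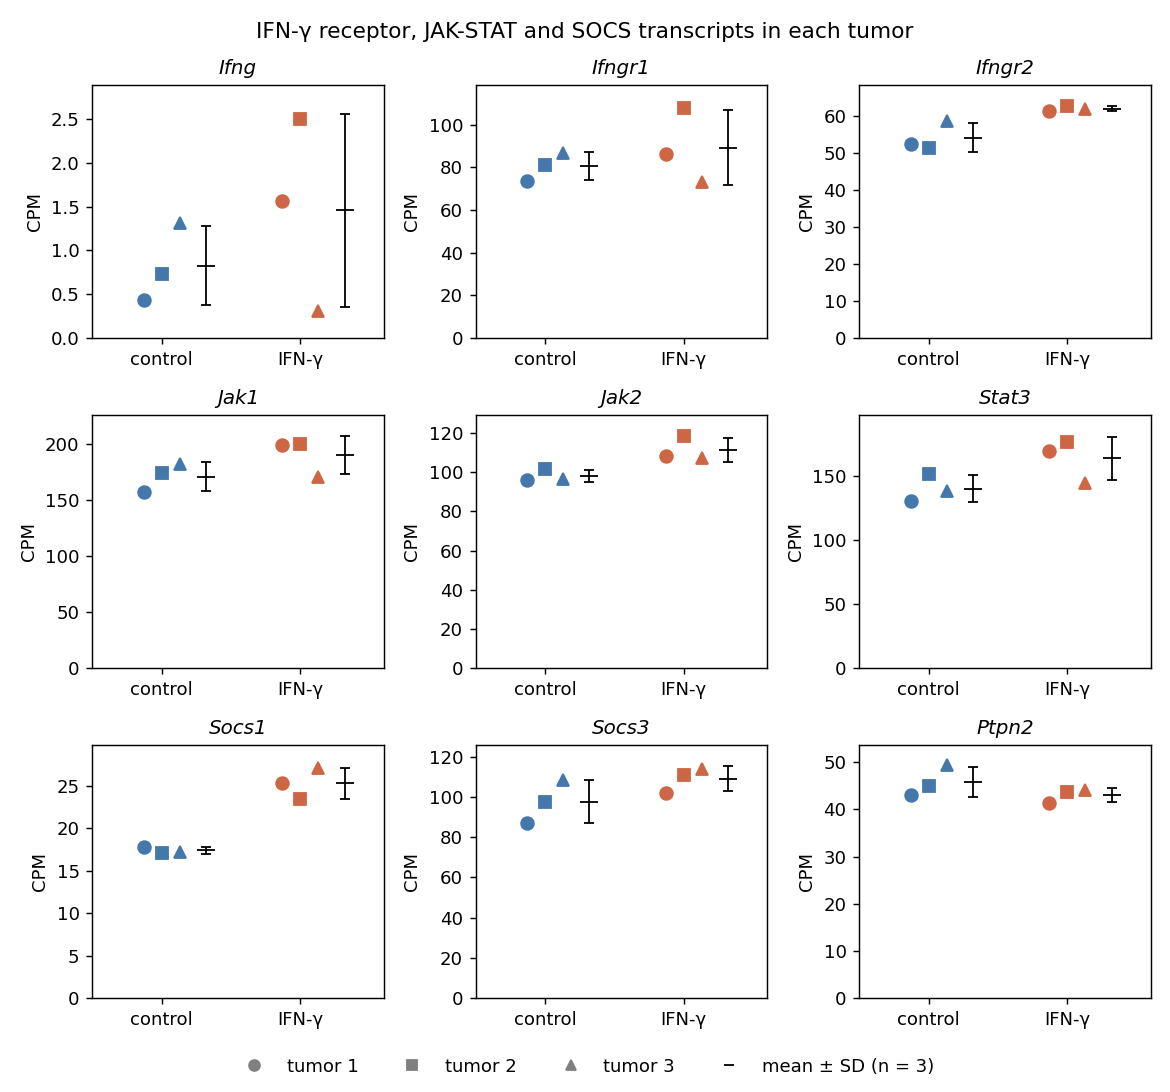
Level of each gene in CPM (y axis, from 0) in the 3 control tumors (blue) and the 3 IFN-γ tumors (orange), with the symbol shape giving the tumor number and the black mark the mean ± SD (n = 3). For Socs1 the IFN-γ tumors lie between 23.5 and 27.1 CPM, above the controls at 17.1 to 17.8 CPM, while for Ifng and Ifngr1 tumor 3 of the IFN-γ group is the lowest of the 6.

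Socs1 had the smallest p of the 9 genes and is compared with Socs3 within each tumor, so the sequences before the start sites of these feedback inhibitors are shown first. They were taken from RefSeq on GRCm38.p6, the assembly called mm10, and cover the 250 bases before each start, 5′ to 3′ on the strand of the gene. The Socs1 stretch is chr16:10785537-10785786 and the Socs3 stretch is chr11:117969367-117969616, both on the minus strand. In the GENCODE annotation Socs3 runs to 117970047, so its stretch lies inside that gene model and precedes the RefSeq start only. Capitals mark matches, on either strand, to 2 motifs searched in the 300 bases around the start. These were the STAT element GAS, TTCNNNGAA, and the interferon-stimulated response element ISRE, here GAAA followed after any 2 bases by GAAA, to which IRF proteins bind.
Socs1: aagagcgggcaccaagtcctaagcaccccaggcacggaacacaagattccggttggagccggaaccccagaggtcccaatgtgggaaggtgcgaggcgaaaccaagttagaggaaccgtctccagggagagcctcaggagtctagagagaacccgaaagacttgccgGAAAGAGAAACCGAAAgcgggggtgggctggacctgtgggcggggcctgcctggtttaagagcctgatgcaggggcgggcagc
Socs3: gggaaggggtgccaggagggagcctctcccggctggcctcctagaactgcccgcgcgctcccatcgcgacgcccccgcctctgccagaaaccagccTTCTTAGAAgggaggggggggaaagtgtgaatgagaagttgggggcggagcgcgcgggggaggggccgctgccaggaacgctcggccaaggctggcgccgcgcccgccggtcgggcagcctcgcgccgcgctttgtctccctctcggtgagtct
Socs1 held 2 overlapping ISRE matches, GAAAGAGAAA and GAAACCGAAA, which began 83 and 77 bases before the start. Socs3 held 1 GAS match, TTCTTAGAA, 154 bases before the start. Of the 8 genes whose promoters were examined (that of Ptpn2 was not), only Socs1 had an ISRE match in this window, and Ifng and Socs3 had a GAS match. Over all 32851 promoters of the same length, 3.44% held the ISRE letters and 8.30% the GAS letters. A match is a description of the letters and not a measured binding site.

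The ligand had the lowest level per kb of exon of the 9 genes. Ifng (ENSMUSG00000055170, chromosome 10 from 118441046 to 118445892) had 7, 13 and 23 counts in control tumors 1, 2 and 3, and 27, 41 and 5 counts in IFN-γ tumors 1, 2 and 3. In CPM this was 0.438, 0.733 and 1.31 in the control group and 1.57, 2.50 and 0.309 in the IFN-γ group, so IFN-γ tumors 1 and 2 were above every control and tumor 3 was below every control. The spread within a group was larger than for any other gene of the pathway, with a coefficient of variation of 53.9% in the control group and 75.4% in the IFN-γ group. Counting error alone is wide at this depth. The exact Clopper-Pearson 95% interval, in CPM of the unscaled library total, was 1.77 to 3.34 for IFN-γ tumor 2 and 0.0977 to 0.702 for IFN-γ tumor 3. The log2 fold change was 0.81 (standard error, SE, 0.67, adjusted p = 0.75, edgeR) in all 6 tumors and 1.27 (SE 0.48, adjusted p = 0.23) without IFN-γ tumor 3. Exons of Ifng share 336 bases with those of Gm49751 on the same strand, a gene model with 0 to 10 counts, and how reads in that stretch were assigned is not given in the sources used here.

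Markers of the cells that make the ligand varied over the same tumors. The sum of 7 T cell markers lay between 43.9 and 67.6 CPM in the control group and between 36.9 and 107 CPM in the IFN-γ group, and the sum of 5 NK cell markers between 25.3 and 40.8 CPM and between 19.8 and 67.9 CPM. For each of the T cell list, the NK cell list and Ifng, IFN-γ tumor 2 was the highest of the 6 tumors and IFN-γ tumor 3 the lowest. Klra8 was at 0 counts in every tumor, the other NK cell markers and all T cell markers were above 3 counts in every tumor, and the part of these cells in the level of Ifng was not tested. Of 12 genes listed for inducing IFN-γ (cytokines such as Il12b and Il18, their receptors, and the T-box factors Tbx21 and Eomes), 11 were tested, 0 passed the adjusted threshold, and 10 had a log2 fold change above 0, with a median of 0.39. Il15, a cytokine that sustains NK cells and memory T cells, had the smallest p among them. It was at 19.9, 21.7 and 23.3 CPM in the controls and at 28.2, 32.6 and 24.4 CPM in the IFN-γ tumors (log2 fold change 0.39, SE 0.13, adjusted p = 0.37, edgeR). Ebi3 and Il18rap, named with it by rank, had log2 fold changes of 0.32 and -0.16. Without IFN-γ tumor 3 the median of the list was 0.63 and 0 genes passed.

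The 3 tested genes whose levels ran most like Ifng over the 6 tumors were Atp1b1, a subunit of the sodium pump, Arhgef37 and the chemokine Cxcl12. Likeness was the root mean square difference of log2 CPM, each gene centered on its own mean, and it was 0.067, 0.14 and 0.14 for these genes, where Ifng itself varied by 0.66 about its mean.

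The receptor chains differed in how they varied. Ifngr1 (ENSMUSG00000020009, chromosome 10 from 19591949 to 19610229), which binds the ligand, was at 73.8, 81.2 and 86.9 CPM in the control tumors and at 86.4, 108 and 73.0 CPM in the IFN-γ tumors. The groups overlapped, since IFN-γ tumor 2 was the highest of the 6 tumors and IFN-γ tumor 3 the lowest. Its log2 fold change was 0.14 (SE 0.14, adjusted p = 0.78, edgeR), and the direction rested on IFN-γ tumor 2, with -0.019 without it and 0.26 without IFN-γ tumor 3. Ifngr2 (ENSMUSG00000022965, chromosome 16 from 91547072 to 91565623), the signaling chain, was at 52.5, 51.4 and 58.7 CPM in the controls and at 61.4, 62.8 and 62.0 CPM in the IFN-γ tumors. Here the groups did not overlap, and the IFN-γ tumors lay within a coefficient of variation of 1.16%, tumor 3 included. They had 1057, 1028 and 1003 counts, at which counting error alone is larger than this on average. Such closeness is therefore no measure of how alike the tumors were. The log2 fold change of Ifngr2 was 0.20 (95% interval 0.017 to 0.37, adjusted p = 0.45, edgeR), and 0.19 without IFN-γ tumor 3. The interval, which is not adjusted for the number of genes, leaves out folds above 1.30. Within a tumor, the log2 ratio of Ifngr2 to Ifngr1 was -0.57 ± 0.084 in the controls and -0.50 ± 0.27 in the IFN-γ tumors (SD, n = 3 each). A two-sided exact permutation test gave p = 0.8 for this difference, in a design of 3 against 3 that cannot go below 0.1.

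The groups were separate for Jak2 and overlapped for Jak1. Jak1 (ENSMUSG00000028530, chromosome 4 from 101152367 to 101265282) was at 157, 174 and 182 CPM in the controls and at 199.6, 200.1 and 171 CPM in the IFN-γ tumors, and the groups overlapped through IFN-γ tumor 3. Its log2 fold change was 0.15 (SE 0.093, adjusted p = 0.63, edgeR). Jak2 (ENSMUSG00000024789, chromosome 19 from 29251828 to 29313080), the kinase carried by IFNGR2, was at 96.0, 102 and 96.4 CPM in the controls and at 108, 119 and 107 CPM in the IFN-γ tumors. All 3 IFN-γ tumors lay above the highest control. The log2 fold change of Jak2 was 0.18 (SE 0.071, 95% interval 0.021 to 0.35, adjusted p = 0.43, edgeR), and 0.20 without IFN-γ tumor 3 (adjusted p = 0.24), so the 6 tumors leave out folds above 1.27. The log2 ratio of Jak2 to Jak1 was -0.80 ± 0.11 in the controls and -0.77 ± 0.11 in the IFN-γ tumors (SD, n = 3 each; exact permutation test, p = 0.7).

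Stat3, the STAT that carries signals of interleukin-6 and interleukin-10 and is also reached by IFN-γ, was at 131, 151 and 138 CPM in the control tumors and at 170, 177 and 145 CPM in the IFN-γ tumors. IFN-γ tumors 1 and 2 were above every control, and tumor 3 was within the control range. The log2 fold change of Stat3 (ENSMUSG00000004040, chromosome 11 from 100885098 to 100939540) was 0.23 (SE 0.097, adjusted p = 0.48, edgeR), and 0.30 without IFN-γ tumor 3 (SE 0.085, adjusted p = 0.11). Exons of Stat3 share 72 bases with those of Stat5a on the other strand, which matters only if strand was not used in counting.

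Socs1 (ENSMUSG00000038037, chromosome 16 from 10782240 to 10785536) had 285, 304 and 302 counts in the control tumors and 436, 385 and 439 counts in the IFN-γ tumors. In CPM this was 17.8, 17.1 and 17.3 against 25.3, 23.5 and 27.1. The controls lay within a coefficient of variation of 2.08%, which is less than counting error alone gives on average at these counts. The lowest IFN-γ tumor was above the highest control. The log2 fold change was 0.54 (SE 0.10, 95% interval 0.31 to 0.77, unadjusted p = 0.000597, adjusted p = 0.14, edgeR). This p was the 63rd smallest of 15114. Socs1 passed the adjusted threshold in DESeq2 (adjusted p = 0.013, in a fit that called 0.822% of genes higher and 0.509% lower) and in edgeR with no filter on low counts (adjusted p = 0.047, 0.558% of genes higher and 0.261% lower). It did not pass in the other alternatives run, and without IFN-γ tumor 3 its log2 fold change was 0.48 (adjusted p = 0.053, edgeR, where 2.46% of genes were called higher). Over the main fit and all 14 alternatives the log2 fold change of Socs1 lay between 0.48 and 0.59.

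**Figure D2:**
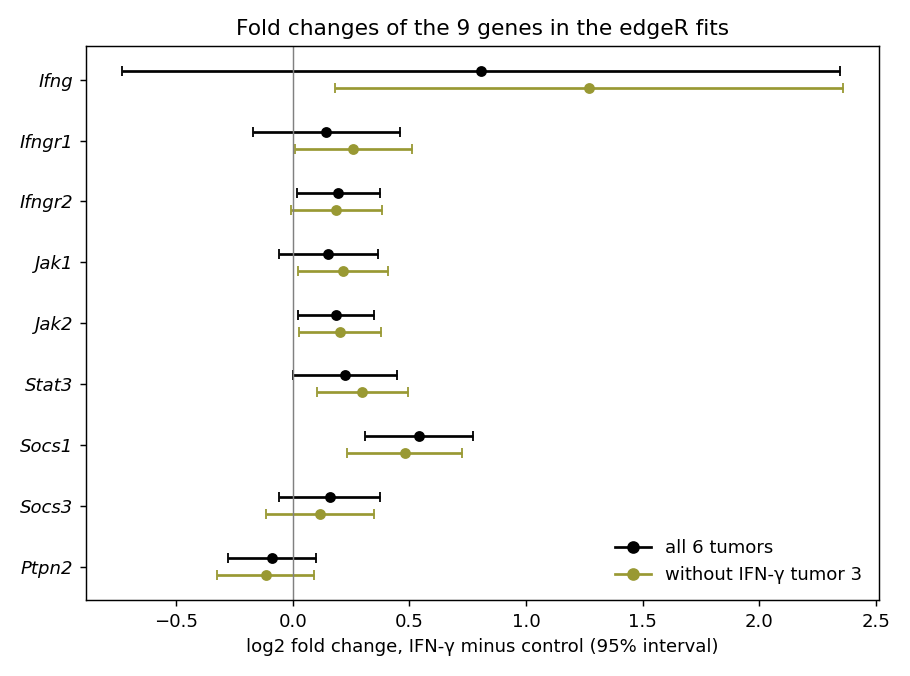
Log2 fold change of each gene, IFN-γ minus control (x axis), with its 95% interval from the edgeR fit, in all 6 tumors (black) and without IFN-γ tumor 3 (olive). Socs1 has the interval farthest above 0, at 0.31 to 0.77 in all 6 tumors, and the interval of Ifng, -0.73 to 2.34, is the widest.

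The values of Socs1 in each tumor were set beside those of 16 genes that IFN-γ is known to induce, among them the transcription factor gene Irf1, the class II transactivator gene Ciita, guanylate-binding protein genes, the chemokine gene Cxcl9 and immunoproteasome genes. In all 6 tumors, 0 of the 16 passed the adjusted threshold and all 16 had a log2 fold change above 0, with a median of 0.76. Without IFN-γ tumor 3, 13 of the 16 passed, with a median of 1.04, where 2.46% of all genes tested were called higher. That tumor was left out for its interferon-response genes, so the rise from 0 to 13 follows in part from that choice. Gbp2, with the smallest p in all 6 tumors, was at 209, 376 and 293 CPM in the controls and at 728, 720 and 360 CPM in the IFN-γ tumors (log2 fold change 1.04, adjusted p = 0.30, and 1.30 with adjusted p = 0.016 without IFN-γ tumor 3, edgeR). Igtp, an immunity-related GTPase gene, was at 87.1, 141 and 126 CPM in the controls and at 282, 274 and 121 CPM in the IFN-γ tumors.

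In IFN-γ tumor 3, 14 of these 16 genes lay within the range of the controls, 2 lay below it and 0 lay above it. Of the 9 genes of the pathway, 3 were within the range of the controls in this tumor, 4 (Ifngr2, Jak2, Socs1 and Socs3) were above it and 2 (Ifng and Ifngr1) were below it. Over all genes tested, 40.9% were within that range and 29.5% above it. The median log2 ratio of the 16 genes to the control mean was 1.05 in IFN-γ tumor 1, 1.04 in tumor 2 and -0.090 in tumor 3. For Socs1 the same ratio was 0.53, 0.42 and 0.63, so it was not lower in the tumor in which the 16 genes were at the level of the controls. With 436 and 439 Socs1 counts in IFN-γ tumors 1 and 3, the order of these tumors was not beyond counting error. Ifngr2 (0.18, 0.21 and 0.19) and Jak2 (0.14, 0.27 and 0.13) were also above the controls in each IFN-γ tumor, while Ifng had 0.64, 1.18 and -0.71 and Ifngr1 0.099, 0.42 and -0.14. The contrast rests on 1 tumor, and the difference between Socs1 and the 16 genes was not tested. The epidermal keratins were highest in IFN-γ tumor 3, at 68.4 CPM, where the other IFN-γ tumors had 3.89 and 2.75 CPM. Their part in the level of Socs1 was not tested.

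Markers of fat cells were higher in each IFN-γ tumor for most of their list, as Socs1, Ifngr2 and Jak2 were. The groups did not overlap for 5 of 6 adipocyte markers (Adipoq, Plin1, Cidec, Lep and Cfd), and they overlapped for Fabp4. None of these passed the adjusted threshold. In the same direction the groups did not overlap for 3 of 6 macrophage markers (Mertk, C1qa and C1qb) and 2 of 5 dendritic cell markers. Over all genes tested this held for 7.62%. Cidec, a lipid droplet protein gene, was at 1.81, 0.902 and 1.77 CPM in the controls and at 4.99, 8.86 and 7.61 CPM in the IFN-γ tumors. The sum of the 6 markers was 102 to 144 CPM in the controls and 143 to 195 CPM in the IFN-γ tumors. Neutrophil markers summed to 27.7 to 36.3 CPM in the controls and to 36.4 to 46.7 CPM in the IFN-γ tumors. For 0 of these 5 markers was every IFN-γ tumor above every control. Most of the sum was the receptor gene Csf3r, and S100a9 was highest in control tumor 1, at 9.13 CPM. The part of any of these cell types in the values of Socs1, Ifngr2 and Jak2 was not tested.

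**Figure D3:**
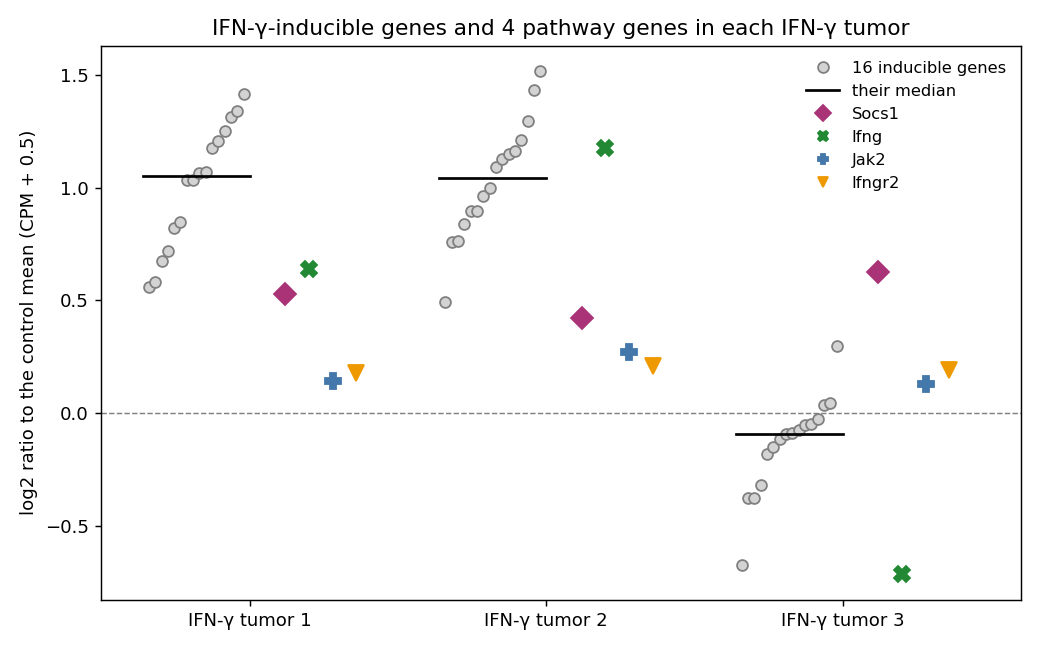
Log2 ratio of CPM + 0.5 to the control mean (y axis) in each IFN-γ tumor, for 16 IFN-γ-inducible genes (grey points, sorted by value, with their median as a line) and for Socs1, Ifng, Jak2 and Ifngr2 (colored symbols). In tumor 3 the median of the 16 genes is at -0.090, Ifng is at -0.71 and Socs1 is at 0.63.

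The genes whose pattern was nearest to that of Socs1 were Bckdha, a subunit of the branched-chain ketoacid dehydrogenase, the cell cycle kinase gene Wee1, and Hyi. Their root mean square differences from Socs1 were 0.044, 0.062 and 0.067 on the log2 scale, where Socs1 varied by 0.27 about its mean. Wee1 was at 34.1, 35.8 and 34.7 CPM in the controls and at 46.6, 48.6 and 53.3 CPM in the IFN-γ tumors. By the same measure the nearest gene was Ifi35 for Ifngr1 (0.045), Ngly1 for Ifngr2 (0.018), Ston1 for Jak1 (0.027), Rere for Jak2 (0.015), Rnf114 for Stat3 (0.027), Prkag2 for Socs3 (0.027) and Xxylt1 for Ptpn2 (0.017). None of the 16 IFN-γ-inducible genes was among the 3 nearest to any of the 9 genes, out of 15114 tested. The measure also counts differences in the size of the variation. This absence therefore cannot tell whether these genes rose and fell together.

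Socs3, which acts chiefly on receptors of the interleukin-6 family, was at 87.0, 97.6 and 108 CPM in the control tumors and at 102, 111 and 114 CPM in the IFN-γ tumors. The groups overlapped, because IFN-γ tumor 1 lay below control tumor 3. The log2 fold change of Socs3 (ENSMUSG00000053113, chromosome 11 from 117966079 to 117970047) was 0.16 (SE 0.094, 95% interval -0.057 to 0.37, adjusted p = 0.62, edgeR). Within each tumor Socs3 exceeded Socs1, by a log2 ratio of 2.26, 2.48 and 2.62 in control tumors 1, 2 and 3 and of 1.99, 2.22 and 2.05 in IFN-γ tumors 1, 2 and 3. The ratio was lower in every IFN-γ tumor than in every control, with means of 2.45 ± 0.18 and 2.09 ± 0.12 (SD, n = 3 each; exact permutation test, p = 0.1, the smallest that 3 against 3 allows). Since the groups did not overlap, leaving out 1 tumor could not reverse the direction of this difference of -0.36. The difference then lay between -0.46 and -0.28.

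Ptpn2 (ENSMUSG00000024539), the phosphatase gene, was at 43.0, 45.0 and 49.3 CPM in the controls and at 41.4, 43.6 and 44.1 CPM in the IFN-γ tumors. The groups overlapped. Its log2 fold change was -0.089 (SE 0.083, adjusted p = 0.78, edgeR), the only one of the 9 below 0, and the 95% interval of -0.28 to 0.10 leaves out folds above 1.07.

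Of 7 other JAK and STAT genes, 0 passed the adjusted threshold in all 6 tumors, 4 had a log2 fold change above 0, and the median was 0.12. Stat2, which joins the complex formed under type I interferon, had the smallest p. It was at 87.4, 125 and 92.6 CPM in the controls and at 169, 158 and 88.9 CPM in the IFN-γ tumors, so tumor 3 lay with the controls. Stat2 was the 1 gene of this list that passed without IFN-γ tumor 3 (log2 fold change 0.67, adjusted p = 0.046, edgeR). In that fit 2.46% of all genes tested were called higher. That tumor was left out for its interferon-response genes, so the pass of Stat2 follows in part from that choice. Jak3 and Tyk2, the remaining JAK kinases, had log2 fold changes of -0.072 and -0.13 in all 6 tumors, and Stat5b had 0.12.

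None of the 6 other SOCS genes was above 0 in log2 fold change, 0 passed the threshold, and the median was -0.079. Socs2, a regulator of growth hormone signaling, was at 11.7, 11.2 and 9.03 CPM in the controls and at 8.42, 8.86 and 8.84 CPM in the IFN-γ tumors. Its groups did not overlap (log2 fold change -0.29, SE 0.15, adjusted p = 0.57, edgeR), as in 7.5% of all genes in that direction. Socs4 had a log2 fold change of -0.071. Socs5 was at 173 to 190 CPM in the controls and at 159, 152 and 216 CPM in the IFN-γ tumors.

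Among 10 other negative regulators (phosphatases, PIAS proteins, Usp18 and Sh2b3), 0 passed in all 6 tumors and the median log2 fold change was 0.099. Ptpn6 encodes SHP-1, a phosphatase of blood cells. It was at 88.8, 110 and 96.1 CPM in the controls and at 152, 156 and 92.8 CPM in the IFN-γ tumors. Ptpn6 passed without tumor 3 (log2 fold change 0.63, adjusted p = 0.018, edgeR), where 2.46% of all genes tested were called higher. Usp18, an interferon-induced brake on type I receptors, was at 45.8 to 52.3 CPM in the controls and at 61.8, 79.9 and 42.0 CPM in the IFN-γ tumors (log2 fold change 0.30, adjusted p = 0.67, edgeR). Pias1 and Ptpn11 had log2 fold changes of -0.081 and -0.044. Ptprc, the leukocyte marker CD45, was also lowest in tumor 3 among the IFN-γ tumors, at 252, 236 and 107 CPM. Both type I interferon receptor genes, Ifnar1 and Ifnar2, had log2 fold changes above 0 (0.16 and 0.21) and did not pass, and Ifnlr1 was too low to be tested.

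Because Stat3 and Socs3 also serve other cytokines, a list was drawn up of ligands and receptors of the interleukin-6 family with those of interleukin-10, granulocyte colony-stimulating factor and leptin. Of its 15 genes 14 were tested, 0 passed in all 6 tumors, and 10 were above 0, with a median of 0.17. Il11ra1, the interleukin-11 receptor chain, was at 16 CPM or less in each control and at 19.2, 21.7 and 17.6 CPM in the IFN-γ tumors (log2 fold change 0.54, SE 0.15, adjusted p = 0.31, edgeR). Il10ra, an interleukin-10 receptor chain of leukocytes, was at 45.7, 60.4 and 53.2 CPM against 93.0, 96.6 and 55.8 CPM. It passed without tumor 3 (log2 fold change 0.83, adjusted p = 0.012, edgeR), where 2.46% of all genes tested were called higher. Il11 and Osm, both of the interleukin-6 family, had log2 fold changes of -0.48 and -0.31 and did not pass. Without tumor 3 the threshold was also passed by Csf3r, the receptor of granulocyte colony-stimulating factor and itself a neutrophil marker, which was named after its values were seen (0.74, adjusted p = 0.014, edgeR). The macrophage markers summed to 1259 to 1453 CPM in the controls and to 1973, 2169 and 1438 CPM in the IFN-γ tumors, and their part in the values of Ptpn6, Ptprc, Il10ra and Csf3r was not tested.

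Of 8 genes linked to STAT3 as targets, 0 passed in all 6 tumors and the median log2 fold change was 0.022. Cebpd, a transcription factor gene of the acute-phase response, had the smallest p of all the genes listed here. It was at 27.2, 21.4 and 27.0 CPM in the controls and at 41.4, 43.6 and 51.6 CPM in the IFN-γ tumors, with tumor 3 the highest. The adipocyte marker Lep, which encodes leptin, was also highest there, at 1.10, 0.916 and 2.23 CPM in the IFN-γ tumors. It was at 0.250 CPM or less in the controls and had 19, 15 and 36 counts in the IFN-γ tumors. The other adipocyte markers were highest in IFN-γ tumor 2, as Cidec at 4.99, 8.86 and 7.61 CPM. The part of fat cells in the level of Cebpd was not tested. Cebpd had a log2 fold change of 0.85 (SE 0.13, adjusted p = 0.074, edgeR), and it passed without tumor 3 (0.75, adjusted p = 0.019), in DESeq2, and without the filter on low counts. These fits called 2.46%, 0.822% and 0.558% of genes higher. Junb was at 115, 103 and 142 CPM in the controls and at 138, 173 and 157 CPM in the IFN-γ tumors (log2 fold change 0.38, adjusted p = 0.39, edgeR). Fosl2 and Il4ra had log2 fold changes of -0.26 and -0.14. Myc, Pim1, Bcl3 and Cebpb of the same list had log2 fold changes between -0.099 and 0.13.

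Levels of different genes were compared per length, as CPM per kb of exon. Socs3 had the highest mean in the control group at 33.8 ± 3.72 (SD, n = 3), followed by Ifngr1 at 28.3 ± 2.31, Jak1 at 23.7 ± 1.78 and Jak2 at 19.5 ± 0.651. Stat3, Ptpn2 and Ifngr2 came next at 14.7 ± 1.10, 14.6 ± 1.04 and 14.4 ± 1.04. Socs1 was at 5.99 ± 0.125 and Ifng at 0.640 ± 0.344. The ranges over the 6 tumors overlapped between neighbors in this order from Socs3 down to Jak2 and among Stat3, Ptpn2 and Ifngr2. They did not overlap between Jak2 and Stat3, between Ifngr2 and Socs1, or between Socs1 and Ifng. Among all tested genes with a length, Socs3 stood at percentile 89.7 for its mean over the 6 tumors, Jak1 at 84.6, Socs1 at 55.1 and Ifng at 15.9.

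**Figure D4:**
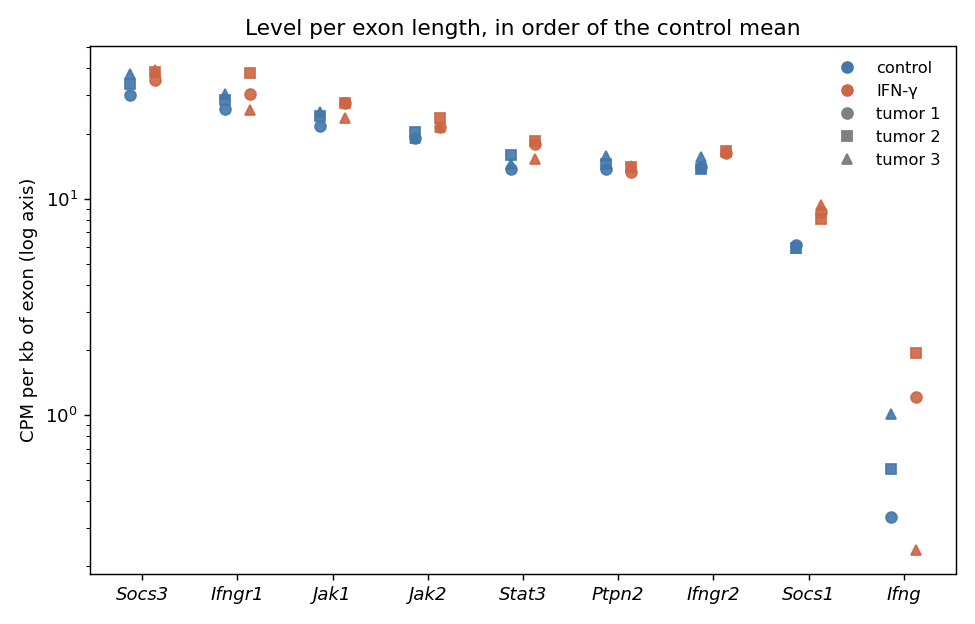
CPM per kb of exon (y axis, log scale) of each gene in the 3 control tumors (blue) and the 3 IFN-γ tumors (orange), in the order of the control mean, with symbol shapes for the tumor number. Socs3 leads at 33.8 in the control mean, and Ifng is lowest at 0.640, with the widest scatter between tumors.

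Without IFN-γ tumor 3, 0 of the 9 genes passed the adjusted threshold in either direction, where 2.46% of the 15487 genes tested were called higher and 0.723% lower. At an unadjusted p under 0.05, 6 of the 9 (Ifng, Ifngr1, Jak1, Jak2, Stat3 and Socs1) were higher in that fit and 0 lower, beside 9.6% and 6.69% of all genes. The median log2 fold change of the 9 genes was 0.22 there, beside -0.016 over all genes tested. In all 6 tumors Ifng, Ifngr1 and Jak1 did not reach this p, while Ifngr2 did. IFN-γ tumor 3 was left out for its interferon-response genes and was the lowest of the 6 for Ifng and Ifngr1. The count of 6 therefore follows in part from that choice.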

How the data were processed

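RNA from 6 subcutaneous tumors was sequenced, 1 library each. The table that the authors deposited holds raw read counts for each gene. The submitters' processing notes name HISAT2 and mm10. The counting program, the annotation and the strandedness are not given in the sources used here. Groups and tumor numbers were taken from the sample titles. CPM values used TMM factors. All genes were fitted with edgeR 4.0.16 (R 4.3.3), after filterByExpr with default settings, by the quasi-likelihood test, and p-values were adjusted after Benjamini and Hochberg (threshold 0.05). The standard error was the size of the log2 fold change over the square root of F, and intervals used the fit's degrees of freedom. Ratios used log2 of CPM + 0.5 and an exact permutation test. DESeq2 1.42.0, limma 3.58.1 (voom), other factors and filters, a replicate block and fits without each tumor were the alternatives, and the code was checked on simulated counts. Lengths and positions came from GENCODE M21 (GRCm38), which holds 99.4% of the identifiers. A count of 0 allows up to 0.171 to 0.190 CPM (3 counts, counting error only). No libraries agreed within sampling noise (smallest chi-square per gene 5.79).

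The 9 genes and all lists were chosen with earlier results of these data known, and the lists hold genes known from textbooks for each role. From each list, genes past the threshold were named, and otherwise at most 2 with the smallest p in each direction, with up to 3 nearest genes by pattern. Other genes named from a list were chosen after their values were seen.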

Additional observations from a re-analysis of the deposited data

How the results depend on the processing

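Of 126 comparisons of the 9 fold changes with an alternative, 123 kept their direction and their call. Socs1 passed in DESeq2 (0.54, adjusted p = 0.013) and with no filter on low counts (0.54, adjusted p = 0.047), so that 1 of the 9 genes was called in each. Ifngr1 reversed to -0.019 without IFN-γ tumor 2. Across the fits that each left out 1 tumor, Ifngr1 lay between -0.019 and 0.26 and Socs1 between 0.48 and 0.59. The ratio of Ifngr2 to Ifngr1 lay between -0.066 (without IFN-γ tumor 3) and 0.21, and that of Jak2 to Jak1 between -0.028 (without control tumor 3; -0.019 without IFN-γ tumor 3) and 0.088, so both reversed, while the main differences were 0.067 and 0.031. Over all genes, 12 were higher and 5 lower. This was 7 higher with library size only, 150 and 70 with no filter, 118 and 73 in DESeq2, 3 lower with limma-voom, and 4 to 381 higher and 2 to 112 lower without 1 tumor, with the highest numbers without IFN-γ tumor 3. Of the listed genes, 0 were called in the main fit, 5 with no filter, 1 in DESeq2 and from 0 to 18 without 1 tumor (18 without IFN-γ tumor 3). With the longest transcript as length, control levels were 38.3 CPM per kb for Socs3, 38.2 for Ifngr1, 34.9 for Jak1, 23.2 for Stat3 and 17.2 for Ptpn2, and Stat3 then stood before Jak2. Apart from the sets of tumors and the length used, the cause was not tested.
Both groups carry the tumor numbers 1 to 3. With these numbers as a replicate block, 5 genes were higher and 2 were lower, and 0 of the 9 were called. Deviations of same-numbered tumors from their group means had correlations of -0.24, -0.0047 and -0.22, so no pairing by number was seen. With 3 tumors per group this check cannot exclude one. The block left the mean differences of the ratios as they were, at 0.067, 0.031 and -0.36. Depth limits mainly Ifng, with 5 to 41 counts per tumor.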
